A study of Mus musculus with 49 samples.

Results

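The effect of TBP loss on transcripts of the late 2-cell mouse embryo was set against the effect of FOXJ3 loss, gene by gene and transposable element (TE) family by TE family. All embryos with at least 500000 counted reads entered, 47 of the 49 in the series. For each feature, the log2 fold change of TBP LOF (loss of function) over its CONTROL is called the TBP effect, that of FOXJ3 LOF over its CONTROL the FOXJ3 effect, and the first minus the second the difference. A negative difference means that a transcript was lower upon TBP LOF, relative to CONTROL, than upon FOXJ3 LOF. The question is whether what follows the degradation of TBP also follows the degradation of another transcription factor by the same method.

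All embryos were F1(C57BL/6JxCBA/H) and were sequenced singly with Smart-seq+5', which marks transcript 5' ends. Zygotes received an antibody against TBP, mouse IgG (mIgG, the CONTROL for TBP LOF), an antibody against FOXJ3 or rabbit IgG (rIgG, the CONTROL for FOXJ3 LOF). After 4 h every zygote, CONTROL embryos included, also received Trim21 mRNA, and the embryos were collected at 48 h post-hCG. The fit held 9 TBP LOF and 9 mIgG embryos, and 16 FOXJ3 LOF and 13 rIgG embryos in 2 library batches (9 and 7 in batch 1, 7 and 6 in batch 2). The embryos came from several independent experiments, but the sources used here do not say which embryo came from which, and p-values therefore measure the spread between these embryos only. The antibody, its IgG and the library batches differ between the experiments together with the protein that was targeted, and cannot be told apart from it.

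TBP binds the TATA element and, as a subunit of TFIID, SL1 and TFIIIB, takes part in initiation by RNA polymerases II, I and III. FOXJ3 is a forkhead transcription factor. In Trim-Away, the ubiquitin ligase TRIM21 binds the Fc part of an injected antibody and sends the antibody, with the protein it holds, to the proteasome. At the late 2-cell stage the mouse genome is being activated, maternal transcripts are being cleared, and TEs such as MERVL and MaLR elements, a class of LTR retrotransposons to which the ORR1A and MT families belong, are transcribed.

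Counted reads per embryo lay between 1103569 and 5434808, and values are given below as scaled reads, that is, reads divided by a size factor from 41 ERCC spike-in transcripts, the same RNA mix added to every embryo. Scaled mCherry-Trim21 reads ran from 479 to 4710.5 in TBP LOF and from 710 to 3445 in its CONTROL, and from 338 to 4796 in FOXJ3 LOF and from 233 to 10066 in its CONTROL. Of 8 marker genes of the 2-cell stage 8 were detected, with summed levels of 208 to 381 CPM in TBP LOF, 93.0 to 278 CPM in mIgG, 113 to 399 CPM in FOXJ3 LOF and 108 to 712 CPM in rIgG embryos. Of 21 cumulus and granulosa cell markers 16 had a read in any embryo, with summed levels of 12.2 to 37.5, 19.4 to 72.4, 15.8 to 44.5 and 12 to 55.9 CPM in the same order, and Dcn, Col3a1, Fshr, Inhba and Inhbb were at 0. Amhr2, with 2099 of these markers' reads, had a difference of -1.25 (adjusted p = 0.0223) by spike-ins and of -0.07 (adjusted p = 0.913) with TMM scaling, described below. Its part in other results was not tested.

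The 2 targets differed at the transcript level. Tbp itself (chromosome 17, 15499888 to 15528379, GRCm38) had 6.82 to 163 scaled reads in TBP LOF (median 87.8) and 218 to 721 in mIgG embryos (median 305), so all 9 TBP LOF embryos lay under all 9 CONTROL embryos. The same held for 7.43% of all features. In FOXJ3 LOF embryos, Tbp had medians of 343 in batch 1 and 313 in batch 2, against 258 and 329 in their CONTROL, with overlapping ranges. The difference for Tbp was -2.45 (adjusted p = 1.63e-05). Foxj3 transcripts (chromosome 4, 119537004 to 119629119) had medians of 289 in FOXJ3 LOF and 220 in rIgG in batch 1, and 326 and 262 in batch 2. The FOXJ3 effect on Foxj3 itself was 0.39 (adjusted p = 0.984). Trim-Away removes protein, so neither transcript reports how much protein was lost, and protein was not analysed here.

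In batch 1 of the FOXJ3 experiment, 2 CONTROL embryos, rIgG embryos 2 and 3, were seen to differ from the other 5 in several levels once the data had been examined. No quality measure of these embryos passed the outlier test for a single embryo. That test weighs the most extreme value alone, so embryos that deviate together can hide each other, and it cannot clear this pair. Their mean level over 86 ribosomal protein genes lay 1.17 and 1.499 log2 units under the median of the batch 1 CONTROL embryos, that over ribosome biogenesis genes 1.49 and 1.57 under, and that over proteasome genes 1.16 and 1.25 under. Prkcd had 80.0 and 18.8 scaled reads in these embryos and 208 to 291 in the other 5. Tbp had 85.2 and 102, against 249 to 441. Their ORR1A1 reads, 8820 and 9995, lay within the range of the batch, 5788 to 17481. For some lists the values without these embryos are given below, and for the other lists they are not.

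The ratio of embryonic RNA to spike-in RNA differed between the experiments. The log2 ratio of gene and TE reads to ERCC reads was 3.94 to 5.18 in TBP LOF (median 4.45) and 4.89 to 5.46 in mIgG embryos (median 5.11), with overlap at the top of the TBP LOF range. In FOXJ3 LOF it was 3.55 to 5.55 in batch 1 (median 5.16) and 4.51 to 5.54 in batch 2 (median 5.01), and the rIgG embryos covered 4.17 to 5.36 (median 4.60) and 3.79 to 5.68 (median 4.76). Means were 5.15 ± 0.21 (SD, n = 9) in mIgG embryos and 4.53 ± 0.42 (SD, n = 9) in TBP LOF, 0.650-fold on the linear scale, whereas FOXJ3 LOF stood at 1.21-fold of its CONTROL. The difference of the log2 changes was -0.90 ± 0.27 (SE), with a permutation p of 0.00086 and an adjusted p of 0.00471 over 6 measures (two-sided, 100000 resamples). Fewer cells and less RNA per cell cannot be told apart in whole embryos.

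**Figure D1:**
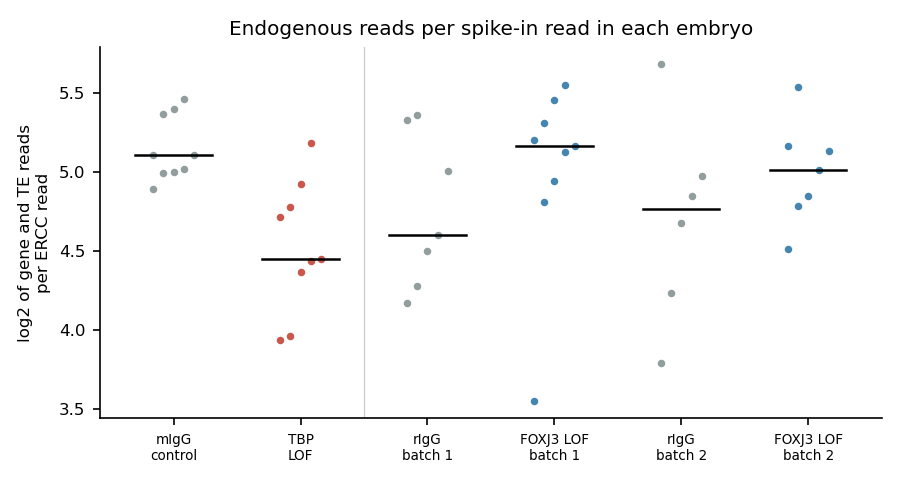
Log2 of gene and TE reads per ERCC read in each of the 47 embryos (points), by group, with medians as black bars. TBP LOF embryos have a median of 4.45 against 5.11 in mIgG embryos, while both FOXJ3 LOF groups have medians above those of their rIgG embryos.

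Among the other measures, the share of ERCC reads differed by 2.19 percentage points (adjusted p = 0.00471), which restates the ratio above. The log2 CPM of the mCherry-Trim21 construct was 0.42 above CONTROL upon TBP LOF, with a value of -0.997 against CONTROL upon FOXJ3 LOF, a difference of 1.42 that missed the threshold (permutation test, adjusted p = 0.0534). The shares of mitochondrial and TE reads and the number of detected genes did not pass either, with adjusted p of 0.216, 0.421 and 0.482 in permutation tests.

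Because the spike-ins carry this shift into every gene, the counts over all features and over the gene lists are given also with TMM scaling, which sets the bulk of features to no change. With spike-in scaling, 5524 of 18295 features passed the threshold of the difference (30.2%), 5386 of them lower (29.4%) and 138 higher (0.754%), and the median of all differences was -0.91. With TMM scaling the median was 0.14, and 4209 passed (23.0%), 2113 lower (11.5%) and 2096 higher (11.5%). All 2113 features that were lower with TMM were lower by spike-ins, all 138 that were higher by spike-ins were higher with TMM, and 0 switched direction. Of the 5386 lower differences, 5077 were also lower in the TBP effect alone.

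The FOXJ3 effect added few calls of its own. The TBP effect passed the threshold for 6086 features (33.3%), 5931 lower (32.4%) and 155 higher (0.847%). With TMM it passed for 5160 (28.2%), 2737 of them lower and 2423 higher. The FOXJ3 effect passed for 3 (0.0164%), all lower, with 756 at an unadjusted p under 0.05 in edgeR. With TMM it passed for 2, Letm1 and Gm37234, both lower. With other tools, DESeq2 called 1 feature and limma-voom 0 in the FOXJ3 effect. Within the batches the FOXJ3 effect gave 0 calls in edgeR in batch 1 (1203 at an unadjusted p under 0.05) and 0 in batch 2 (619), and the FOXJ3 effects of the batches differed for 0 features (914). With TMM, batch 1 gave 1 call, Letm1 (1865 at an unadjusted p under 0.05), batch 2 gave 0 (782), and the batches differed for 1 feature, Gm14812 (1501). Set against the FOXJ3 effect of each batch, the difference passed for 5330 features in batch 1 (29.1%) and 3411 in batch 2 (18.6%). Without rIgG batch 1 embryos 2 and 3, the difference passed for 5282 features, and the FOXJ3 effect for 1.

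Over the 4392 well-covered features, those with a mean of at least 50 scaled reads, the TBP effect had an SD of 0.92 and the FOXJ3 effect one of 0.24. Within the batches the SD of the FOXJ3 effect was 0.39 in batch 1 and 0.32 in batch 2. All TBP LOF embryos lay under all mIgG embryos in 1359 features (7.43% of 18295) and over them in 2 (0.0109%). In the FOXJ3 experiment the groups were separated downward in 1 feature (0.00547%) and upward in 1 (0.00547%) in batch 1, and in 1 (0.00547%) and 11 (0.0601%) in batch 2, with 7 LOF and 6 CONTROL embryos in the latter.

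**Figure D2:**
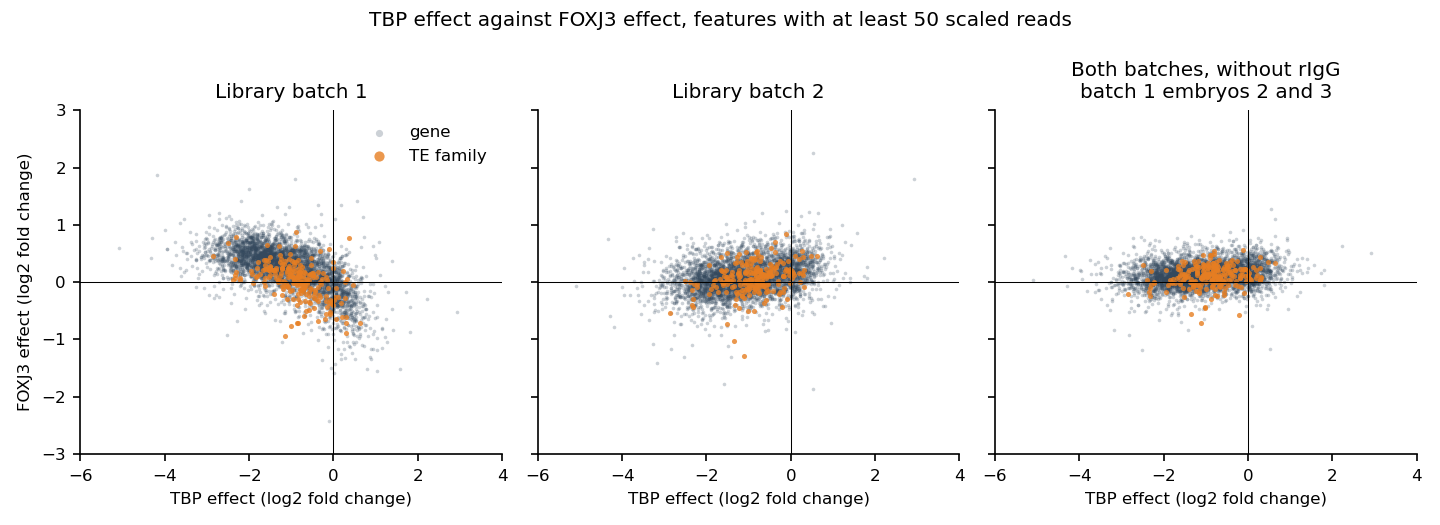
FOXJ3 effect (y axis, log2 fold change) against TBP effect (x axis, log2 fold change) for well-covered features, each point a gene or TE family, with spike-in scaling. The panels use FOXJ3 batch 1, batch 2, and both batches without rIgG batch 1 embryos 2 and 3. The cloud runs downward to the right in batch 1 and upward in the other panels. The y axis ends at 3 log2 units on either side and leaves out SYNREP_MM, at -8.86 in batch 2 and -3.49 in the third panel.

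Among single genes, Prkcd had the smallest p of the difference. It encodes protein kinase C delta (chromosome 14, 30595354 to 30626210, minus strand). Its scaled reads were 10.6 to 58.3 in TBP LOF (median 21.0) and 168 to 434 in mIgG embryos (median 237). In FOXJ3 LOF they were 114 to 524 in batch 1 (median 360) and 162 to 400 in batch 2 (median 259), against 18.8 to 291 (median 216) and 96.9 to 272 (median 237) in rIgG embryos. Prkcd was thus separated from CONTROL in the TBP experiment and overlapped it in both FOXJ3 batches. The TBP effect was -3.40 ± 0.36 (SE), the FOXJ3 effect 0.66 (adjusted p = 0.984), and the difference -4.05 ± 0.43 (adjusted p = 6.48e-10). With TMM the difference was -2.94.

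Polr2h, a subunit that RNA polymerases I, II and III share (chromosome 16, 20717665 to 20722267, plus strand), followed the same course. TBP LOF embryos had 25.6 to 96.2 scaled reads (median 46.3) and mIgG embryos 273 to 648 (median 383), without overlap. In batch 1 the FOXJ3 LOF embryos had 138 to 685 (median 361) and the rIgG embryos 72.8 to 501 (median 206). The corresponding batch 2 values were 194 to 375 (median 306) and 153 to 352 (median 262). The lowest 2 values in rIgG batch 1 were those of embryo 3, 72.8, and embryo 2, 125. For Polr2h the difference was -3.38 ± 0.40 (adjusted p = 4.46e-09), and -2.18 with TMM.

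Mafk encodes a small Maf factor that binds DNA as a partner of other bZIP proteins (chromosome 5, 139791513 to 139802653). It had 3.43 to 13.5 scaled reads in TBP LOF (median 5.27) and 24.2 to 147 in mIgG embryos (median 49.7). Upon FOXJ3 LOF the medians were 57.6 and 60.5 in batches 1 and 2, against 34.1 and 19.7 in CONTROL, with overlap in both. Its FOXJ3 effect of 1.08 missed the threshold (adjusted p = 0.617), and its difference was -4.34 ± 0.53 (adjusted p = 1.39e-08).

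The other genes with the smallest p in the downward direction were separated from CONTROL in 9 of 9 TBP LOF embryos, as were 7.43% of all features. Like Prkcd, Polr2h and Mafk, they were chosen by p in these same embryos, which favours such separation. Rpl22l1, a paralog of the ribosomal protein gene Rpl22, had 0 to 18.9 scaled reads in TBP LOF (median 5.17) and 19.98 to 225 in mIgG embryos (median 108), and a difference of -4.91 ± 0.61. Pmpcb, the beta subunit of the mitochondrial processing peptidase, had 1.29 to 10.5 against 39.7 to 70.7 and a difference of -4.16. Differences of -4.89 for Sco2, needed to assemble cytochrome c oxidase, -3.87 for Atg3, the E2-like enzyme of autophagy, -4.16 for the imprinted gene Usp29, -4.33 for Nkapd1 and -3.996 for Pibf1 completed this set. Their FOXJ3 effects lay between 0.21 and 0.66 and none of these passed the threshold. All of these genes also passed with TMM scaling, by the rule that named them.

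Of 52 ribosome biogenesis genes 52 had a lower difference, with a median of -2.39, beside 29.7% lower and a median of -0.90 over all 17421 genes tested. The median TBP effect of the list was -2.15 and the median FOXJ3 effect 0.27. The FOXJ3 median was 0.46 in batch 1, with 51 of the 52 genes above zero, -0.02 in batch 2, with 25 of 52 above zero, and 0.09 without rIgG batch 1 embryos 2 and 3. Over all 17421 genes it was 0.15 in batch 1, with 10315 above zero, and 0.13 in batch 2, with 10601 above zero. Nop16, a nucleolar factor of large subunit assembly, had 30.3 to 143 scaled reads in TBP LOF (median 83.0) and 267 to 1082 in mIgG embryos (median 451). Differences of -3.36 for the nucleolar helicase Ddx21, -3.27 for Rrp8, a methyltransferase of ribosomal RNA, -3.04 for the H/ACA snoRNP protein Nop10 and -2.93 for Nop16 passed the threshold. With TMM 39 of the 52 passed, all lower, beside 11.9% of all genes.

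Cytosolic ribosomal protein genes, 87 in number, had a lower difference in 82, with a median of -2.18, beside 29.7% of all genes. With TMM 60 were lower, beside 11.9% of all genes. With TMM and FOXJ3 batch 2 only, 20 of 86 were lower, where 856 of all 17804 features were. Rpl14 had 15.9 to 112 scaled reads in TBP LOF (median 43.8) and 389 to 867 in mIgG embryos (median 539), and a difference of -3.51. The FOXJ3 effect of this list depended on the batch and on 2 CONTROL embryos. Its median was 0.61 in batch 1, with 85 of 87 genes above zero, and -0.08 in batch 2, with 27 above zero. Of all 17421 genes, 10315 were above zero in batch 1 and 10601 in batch 2. Without rIgG batch 1 embryos 2 and 3, the median FOXJ3 effect over both batches went from 0.29 to 0.12. In that fit 80 genes had a lower difference, with a median of -1.96, beside 5209 of all 18335 features. Ribosomal protein genes have many near-identical processed copies, so single values are uncertain.

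Genes of the transcription machinery are given beside 29.7% lower and a median of -0.90 over all genes, and with TMM beside 11.9% lower and 11.7% higher. Of 27 RNA polymerase subunit genes 23 had a lower difference (median -1.92; 13 with TMM), among them Polr3d at -3.20, Polr1b at -3.04 and Polr1d at -2.63, all of which passed. Of 17 genes of the general factors TFIIA to TFIIH, 13 were lower (median -1.68; 7 lower and 2 higher with TMM). Gtf2f2, a TFIIF subunit, had a difference of -2.52, the TFIIH genes Gtf2h5 and Gtf2h1 -2.49 and -2.42, and Cdk7, the kinase of TFIIH, -2.10. Among 30 genes of TBP, its paralogs and its partners 13 were lower (median -0.99; 8 lower and 4 higher with TMM), among them the TFIID gene Taf8 at -2.62 and the SL1 genes Taf1b at -2.54 and Taf1a at -2.41. Mediator, the coactivator between activators and polymerase II, had 14 of 33 lower (median -1.07), with Med8 at -3.54 and Med6 at -2.74, but 5 lower and 6 higher with TMM.

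For the remaining housekeeping groups, 29.7% of all genes were lower by spike-ins, and with TMM 11.9% were lower and 11.7% higher. Of 53 spliceosome and SR protein genes 46 were lower (median -1.92; 25 lower and 1 higher with TMM), such as Prpf8, the core U5 protein, at -3.09 and Snrpd1, an Sm core protein, at -2.67. The proteasome list had 30 of 39 lower (median -1.99; 19 with TMM), with Psma6 at -2.87, Psma1 at -2.82 and Psmb2 at -2.23. It holds 1 gene that is no subunit, the recombination factor Psmc3ip, at -2.98. Of 78 mitochondrial ribosomal protein genes 53 were lower (median -1.60), but with TMM 16 were lower and 3 higher. Mrpl54 had the lowest p among these, with a difference of -4.29.

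INO80, an ATP-dependent remodeler that moves nucleosomes, had 15 genes tested, of which 12 had a lower difference (median -2.14; 7 with TMM), beside 29.7% of all genes and 11.9% with TMM, including Ino80c at -3.07, Tfpt at -2.48, Nfrkb at -2.37 and Ruvbl1 at -2.18. The FOXJ3 effect of the list had a median of 0.21, and 14 of the 15 genes were above zero. Without rIgG batch 1 embryos 2 and 3 the median was 0.12, with 11 of 15 above zero, and with batch 2 only it was -0.01, with 7 of 15. Over all features the median FOXJ3 effect was 0.13, 0.15 without these embryos and 0.14 with batch 2 only. In the full fit, 10601 of all 17421 genes were above zero in batch 2. Ino80b had a FOXJ3 effect below zero and is described with the shared genes.

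**Figure D3:**
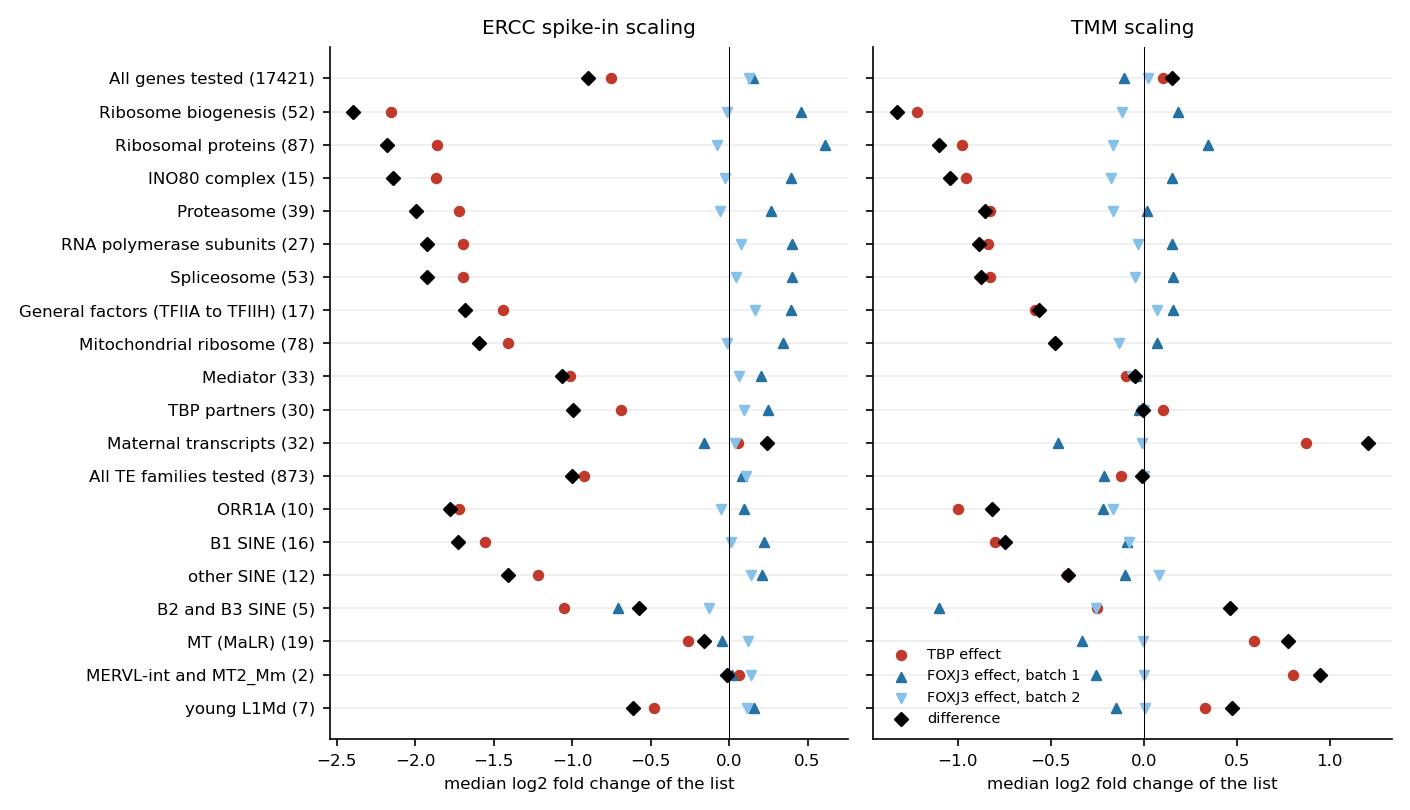
Median log2 fold change of gene lists and TE lists (numbers of tested members in brackets) for the TBP effect, the FOXJ3 effect in each batch and the difference, with spike-in scaling on the left and TMM on the right. Ribosome biogenesis, ribosomal protein and INO80 genes lie farthest left by spike-ins, and the maternal list moves from 0.24 to 1.21 with TMM.

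Of 21 transcription factors of genome activation and the first lineages, 9 were lower and 0 higher (median -0.99), beside 29.7% lower and a median of -0.90 over all genes. With TMM 5 were lower and 2 higher, beside 11.9% and 11.7%. Tead4, a factor of the trophectoderm, had 0 to 7.24 scaled reads in TBP LOF (median 0) and 12.7 to 52.0 in mIgG embryos (median 36.1), and a difference of -3.79. Tfap2c stood at -2.60, and Dppa4 and Dppa2, partners in early activation, at -2.22 and -2.22. Obox8, of the Obox homeobox cluster, had 2.27 to 247 scaled reads (median 73.0) against 459 to 1046 (median 697), and a difference of -3.39. Obox6 was at -2.03, while the list of 7 Obox genes had a median of 0.31 and 2 lower members, and with TMM 2 were lower and 3 higher. The sign of the Obox median turned to -0.32 without rIgG batch 1 embryos 2 and 3, where the median FOXJ3 effect went from -0.18 to 0.11, and to -0.38 with FOXJ3 batch 2 only. Obox genes are near-identical copies, so their reads may be divided between them.

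Heat shock genes were lower in 11 of 18 (median -1.31), such as the cochaperone gene Bag3 at -3.22 and Hsph1 at -2.65, beside 29.7% of all genes. With TMM, where 11.9% of all genes were lower and 11.7% higher, 4 heat shock genes were lower and 2 higher (median -0.15). Genes of p53 and apoptosis were lower in 10 of 20 (median -1.44), and with TMM 4 were lower and 2 higher (median -0.29). Apaf1, the scaffold of the apoptosome, and Mdm2, the ubiquitin ligase of p53, had differences of -2.48 and -1.77. Interferon and NF-kappaB genes were lower in 5 of 16, with Relb at -2.92, a share near the 29.7% of all genes, and with TMM 2 were lower and 1 higher. Forkhead genes were lower in 3 of 21, with Foxj2, a paralog of Foxj3, at -2.43, a share under that of all genes, and with TMM 1 was lower and 5 higher.

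Of 32 maternal oocyte transcripts tested, 3 had a lower difference and 0 a higher one, beside 29.7% and 0.792% of all genes, and the median was 0.24, beside -0.90. These 3 were Zp3, a zona pellucida glycoprotein, at -1.995, Zar1l at -1.74 and Ccnb1, cyclin B1, at -1.64. Ccnb1 had 110 to 916 scaled reads in TBP LOF (median 400) and 1107 to 2086 in mIgG embryos (median 1414). With TMM 22 of the 32 were higher, beside 11.7% of all genes, and 0 lower, so the calls of this list depend on the scaling. With TMM and FOXJ3 batch 2 only, 6 were higher, where 450 of all 17804 features were. In the full TMM fit 2096 of 18295 features were higher, so higher calls were fewer over all features too. Without rIgG batch 1 embryos 2 and 3 the median was -0.10 by spike-ins, and embryo 3 stood 1.34 log2 units above the median of its group in maternal transcripts. Of 8 marker genes of the 2-cell stage 0 were lower and 0 higher by spike-ins in edgeR (median 0.52), and with TMM 3 were higher and 0 lower (median 1.46). The median of these markers without rIgG batch 1 embryos 2 and 3 was -0.0045 by spike-ins, and 0.70 with TMM. In the latter fit 1 was higher, beside 961 of all 18335 features. The median FOXJ3 effect of the markers by spike-ins went from -0.33 to 0.04. With FOXJ3 batch 2 only the median difference was -0.25.

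Among 873 TE families, 205 had a lower difference and 0 a higher one (23.5%), with a median of -1.0. With TMM 48 were lower (5.5%) and 53 higher (6.07%), and the median moved up with the rest. In the FOXJ3 effect 0 TE families passed in edgeR, with 23 at an unadjusted p under 0.05 by spike-ins, and 0 passed with TMM, with 62. By group, ORR1A families were lower in 9 of 10 (median -1.78; 6 with TMM), B1 SINEs in 15 of 16 (median -1.73; 13 with TMM) and other SINEs in 11 of 12 (median -1.41; 4 with TMM). SINEs are short elements copied by the proteins of LINE1.

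ORR1A1 had 806 to 4650.5 scaled reads in TBP LOF (median 1797) and 5230.3 to 12270.2 in mIgG embryos (median 10925), without overlap. Such downward separation occurred in 7.43% of all features. In FOXJ3 LOF it had 2842 to 15861 in batch 1 (median 9511) and 6164 to 9206 in batch 2 (median 7277), against 5788 to 17481 (median 9916) and 4306 to 13444 (median 6944) in rIgG embryos. ORR1A1 thus overlapped CONTROL in both FOXJ3 batches. Its TBP effect was -2.22, its FOXJ3 effect 0.00 and its difference -2.23 ± 0.39 (adjusted p = 7.63e-06), and -1.27 with TMM.

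Internal parts of the same elements followed, with differences of -2.38 for ORR1A1-int, -2.26 for ORR1A4-int and -1.92 for ORR1A2-int. ORR1A1-int had 254 to 2329 scaled reads in TBP LOF (median 814) and 2798 to 5902 in mIgG embryos (median 4321). ORR1A0 overlapped its CONTROL by 1 embryo, with 1886 to 12325 (median 3574) against 8717 to 20404 (median 15580). For ORR1A0 the difference was -1.57 (adjusted p = 0.00131) by spike-ins and -0.62 (adjusted p = 0.0605) with TMM, so its call rests on the scaling. The ORR1A list had a median FOXJ3 effect of 0.10 in batch 1 and of -0.05 in batch 2.

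B1_Mm had 305 to 2082 scaled reads in TBP LOF (median 978) and 1311 to 13706 in mIgG embryos (median 5627), with 6 of 9 TBP LOF embryos under every CONTROL embryo. Differences of -2.41 for B1_Mm, -2.22 for B1_Mus2 and -1.84 for B1_Mus1 passed with both scalings. The ERVK families RLTR9E and RLTRETN_Mm, LTR elements of the same class as IAP, had differences of -2.86 and -2.89. RLTR9E had 13.4 to 73.6 scaled reads (median 41.3) against 143 to 623 (median 259).

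Other families abundant at this stage did not pass by spike-ins. MT2_Mm, the LTR of MERVL, had 28011 to 154491 scaled reads in TBP LOF (median 46074) and 33898 to 87623 in mIgG embryos (median 50316), a difference of 0.20 ± 0.44 (SE, adjusted p = 0.791). MERVL-int had a difference of -0.22 (adjusted p = 0.746), MTA_Mm of 0.33 and MTB_Mm of 0.60. With TMM, all 4 passed in the upward direction, at 1.15, 0.75, 1.24 and 1.60. For all 4 the call thus depends on the scaling, and for MERVL-int the sign as well. Beside 23.5% of all TE families, young LINE1 families were lower in 0 of 7 (median -0.61), IAP families in 1 of 25 (median -0.34), and the B2 group in 2 of 5, B3 and B3A, with B2_Mm2 at -0.57 and B2_Mm1t at -0.39 not passing. The median difference of the B2 group was -0.57, and -0.97 without rIgG batch 1 embryos 2 and 3, where its median FOXJ3 effect went from -0.45 to -0.06. With TMM 0 members of these 3 lists were lower, and 2 of 25 IAP families were higher, beside 5.50% lower and 6.07% higher among all TE families.

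**Figure D4:**
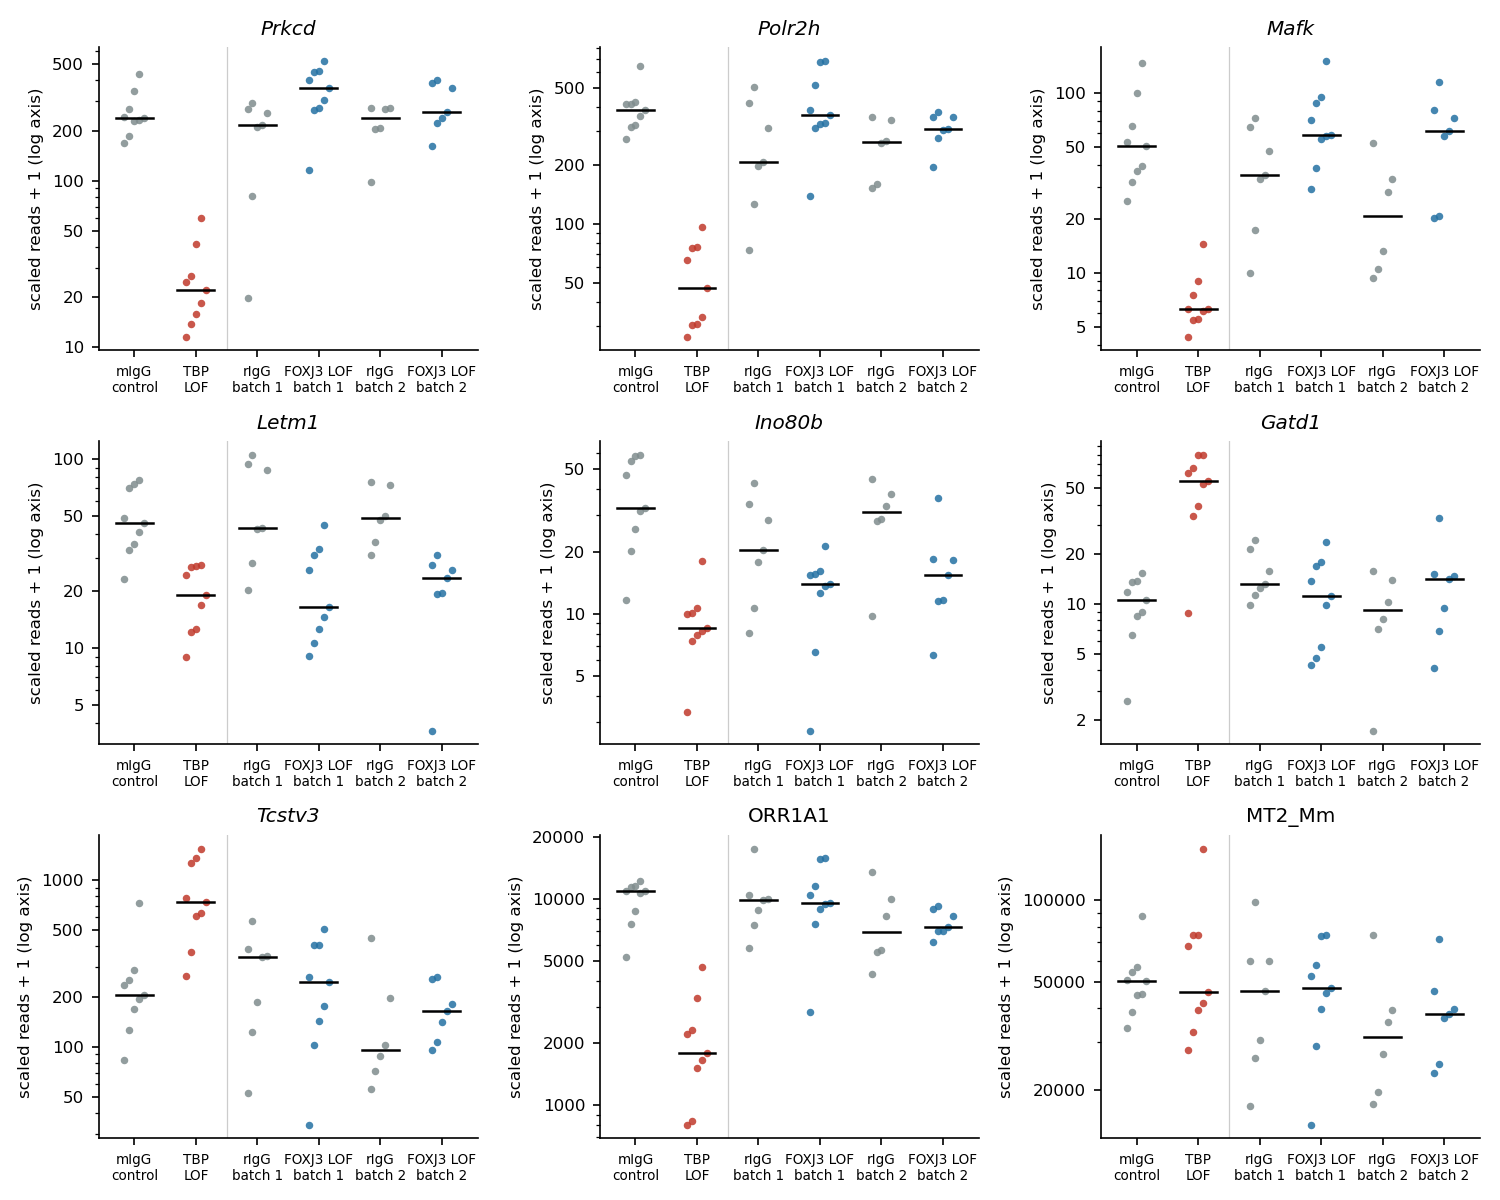
Scaled reads plus 1 (log axis) of 7 genes and the TE families ORR1A1 and MT2_Mm in each of the 47 embryos (points), by group, with medians as black bars. Prkcd, Polr2h, Mafk and ORR1A1 have their lowest medians in TBP LOF, Letm1 and Ino80b have a lower median in each LOF group than in its CONTROL, Gatd1 and Tcstv3 have their highest in TBP LOF, and MT2_Mm overlaps in each comparison.

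A small set was higher by spike-ins, whereas with TMM 2096 features (11.5%) were. Of the 138 features with a higher difference (0.754% of all tested), 80 were also higher in the TBP effect alone. Gatd1, which encodes a protein of the glutamine amidotransferase-like fold (chromosome 7, 141407794 to 141414136), had 7.89 to 78.9 scaled reads in TBP LOF (median 54.3) and 1.59 to 14.5 in mIgG embryos (median 9.56), with 8 of 9 embryos above every CONTROL embryo. In the FOXJ3 experiment its medians were 10.2 and 13.2 in LOF and 12.2 and 8.22 in CONTROL, in batches 1 and 2. The difference was 2.48 ± 0.57 (adjusted p = 0.000373).

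Tcstv3, a gene expressed at the 2-cell stage (chromosome 13, 120316878 to 120318178), had 265 to 1538 scaled reads in TBP LOF (median 736) and 81.8 to 726 in mIgG embryos (median 203), with 5 of 9 above every CONTROL embryo and a difference of 1.78 ± 0.50 (adjusted p = 0.00395). In FOXJ3 LOF the medians of Tcstv3 were 244 in batch 1 and 162 in batch 2, against 344 and 94.3 in rIgG embryos. Cirbp, a cold-inducible RNA-binding protein, had 28.9 to 76.3 against 7.76 to 24.6, with all 9 above, which occurred in 0.0109% of features. Its difference was 1.94 ± 0.55, although its FOXJ3 effect was -0.76 in batch 1 and 0.95 in batch 2.

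Further genes named by the smallest p in this direction were Mrnip at 2.23, whose product binds the MRN complex of DNA repair, the pseudogene Zfp353-ps at 2.83, and the predicted genes Gm29125 at 1.94, Gm839 at 2.08, Gm5662 at 2.27, Gm35974 at 3.16 and Gm13341 at 5.30. The value of Gm13341 rested on few embryos, since 3 of 9 TBP LOF embryos lay above CONTROL, the LOF median was 1.60 scaled reads and the highest 280. For Zfp353-ps, the FOXJ3 effect was -2.11 in batch 1 and 0.11 in batch 2. Among 33 histone cluster genes 2 were higher, Hist1h4i at 2.44 and Hist1h2bp at 3.12, and 2 lower, Hist1h2ap at -1.89 and Hist1h2an at -2.01, beside 0.792% higher and 29.7% lower of all genes. With TMM 8 histone genes were higher and 0 lower, beside 11.7% and 11.9% of all genes. Once rIgG batch 1 embryos 2 and 3 were left out, 1 was higher and 2 lower by spike-ins, beside 73 and 5209 of all 18335 features. With TMM 3 were then higher, beside 961 of 18335. The median FOXJ3 effect of the list by spike-ins went from -0.19 to 0.20.

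At an unadjusted p under 0.05 in edgeR, the TBP effect held 7476 of 18295 features and the FOXJ3 effect 756. In both effects, 383 features were found, of which 335 were lower upon TBP LOF and higher upon FOXJ3 LOF. The reverse held for 12, 30 were lower in both and 6 higher in both. Over all features the median TBP effect was -0.76 and the median FOXJ3 effect 0.13 by spike-ins, and the sign counts carry these shifts. Whether the features in both exceed what unrelated effects would give was not tested. Without rIgG batch 1 embryos 2 and 3 there were 229, in the same order 174, 4, 42 and 9. With FOXJ3 batch 2 only there were 170, namely 88, 4, 54 and 24. With TMM there were 489, namely 107, 309, 55 and 18. With TMM and without these embryos there were 390, namely 84, 47, 152 and 107, and with TMM and FOXJ3 batch 2 only 314, namely 29, 42, 88 and 155. Opposite directions were thus more frequent than shared ones by spike-ins, without these embryos, in batch 2 and with TMM, and less frequent where TMM was combined with leaving out these embryos or with batch 2 only. The number of features also depended on single embryos, since it was 258 without rIgG batch 1 embryo 2, 271 without rIgG batch 2 embryo 1, 676 without rIgG batch 1 embryo 4, 681 without rIgG batch 2 embryo 2 and 695 without FOXJ3 LOF batch 1 embryo 2. Those lower upon TBP LOF and higher upon FOXJ3 LOF ran from 199 to 643 over the fits with 1 embryo left out.

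Letm1, a mitochondrial inner membrane protein of ion exchange (chromosome 5, 33739673 to 33782817, minus strand), passed the threshold in both effects by spike-ins. The rule that named it was in part that the study names it. TBP LOF embryos had 7.99 to 26.5 scaled reads (median 18.0) and mIgG embryos 22.2 to 76.4 (median 45.0). FOXJ3 LOF embryos had 8.07 to 43.6 in batch 1 (median 15.5) and 2.67 to 29.9 in batch 2 (median 22.5), against 19.3 to 104 (median 42.2) and 29.9 to 74.96 (median 47.6). Below every CONTROL embryo of their own batch lay 5 of 9 TBP LOF, 5 of 9 FOXJ3 batch 1 and 6 of 7 FOXJ3 batch 2 embryos. The TBP effect was -1.42 ± 0.37 (adjusted p = 0.00138) and the FOXJ3 effect -1.41 ± 0.28 (adjusted p = 0.0258).

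The difference for Letm1 was -0.01 ± 0.43 (SE) by spike-ins. With TMM the TBP effect was -0.53 and did not pass (adjusted p = 0.234), the FOXJ3 effect was -1.65 (adjusted p = 0.000535) and the difference 1.13 (adjusted p = 0.0427), so that whether the effects on Letm1 differed depended on the scaling, with the lower value upon FOXJ3 LOF where they did. The FOXJ3 effect of Letm1 passed in 34 of 47 fits with 1 embryo left out, and did not pass without FOXJ3 LOF batch 1 embryos 3, 4, 6, 9 or 10, rIgG batch 1 embryos 1, 5 or 6, FOXJ3 LOF batch 2 embryos 1, 3 or 5, or rIgG batch 2 embryos 2 or 3. Nor did it pass with total ERCC reads, with voom, with a model per experiment or with the construct level as covariate. A refit of either batch alone, with either scaling, did not call it, nor did the replicate block or the same pairs without the block.

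Ino80b, a subunit of INO80 (chromosome 6, 83121765 to 83125431), had 2.37 to 17.1 scaled reads in TBP LOF (median 7.58) and 10.7 to 57.8 in mIgG embryos (median 31.6). In FOXJ3 LOF it had medians of 12.9 in batch 1 and 14.4 in batch 2, against 19.3 and 30.1 in rIgG embryos, with overlap. The TBP effect was -2.14 and passed. The FOXJ3 effect was -0.87 (adjusted p = 0.984), with -0.89 in batch 1 and -0.86 in batch 2, and the difference was -1.26 ± 0.53 (adjusted p = 0.0618).

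Phlda2, an imprinted gene known for its role in the placenta, had 37.5 to 121 scaled reads in TBP LOF (median 54.3) and 90.6 to 1015 in mIgG embryos (median 287). In batch 1 its medians were 36.3 in FOXJ3 LOF and 108 in rIgG, and in batch 2 47.4 and 117. Its effects were -2.52 for TBP and -1.09 for FOXJ3 (adjusted p = 0.889 for the latter). The difference of -1.43 passed (adjusted p = 0.0379), but not with TMM, at -0.31. The unnamed genes 3000002C10Rik and 4933408B17Rik had TBP effects of -2.37 and -2.27 and FOXJ3 effects of -1.10 and -1.40. In the upward direction, Pigt, a subunit of the GPI transamidase, had effects of 1.91 and 0.80, and Gm12823 of 1.69 and 1.00. The FOXJ3 effects of 3000002C10Rik, 4933408B17Rik, Pigt and Gm12823 did not pass the threshold. These genes were chosen for effects of the same sign with a small unadjusted p in both, so their shared sign is not independent evidence.

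Besides Letm1, the FOXJ3 effect passed the threshold for Gm37234 at -4.94 (adjusted p = 0.0121) and Tmem37 at -3.23 (adjusted p = 0.0258). Neither passed in DESeq2, in voom, with filterByExpr, within a single batch, under the replicate block or without rIgG batch 1 embryos 2 and 3, and Tmem37 did not pass with TMM. With 1 embryo left out, Gm37234 passed in 46 of 47 fits, the exception being rIgG batch 1 embryo 3. Tmem37 passed in 34 of 47, and did not pass without FOXJ3 LOF batch 1 embryos 1, 3, 4, 6, 9 or 11, FOXJ3 LOF batch 2 embryos 2, 3 or 5, rIgG batch 1 embryos 2 or 5, or rIgG batch 2 embryos 2 or 3. Gm37234 was not lower upon TBP LOF, with a TBP effect of 2.41 (adjusted p = 0.122) and a difference of 7.36, at a mean of 2.55 scaled reads per embryo. Tmem37 had a TBP effect of -1.68 (adjusted p = 0.0798) and a difference of 1.55 (adjusted p = 0.242). Of 2 further genes that the study names upon FOXJ3 LOF, 2310039H08Rik had a difference of 5.63 (adjusted p = 0.000516) and Gm20274 of 3.91 (adjusted p = 0.00569). The difference of Gm20274 was 2.23 (adjusted p = 0.141) without TBP LOF embryo 9 and ran up to 5.85 with another embryo left out. The study chose these genes on the same FOXJ3 embryos, so their FOXJ3 direction is not independent evidence.

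Across features, the effects did not run in parallel as a whole, and the sign of their relation was not the same in the batches. Over 4392 well-covered features, Spearman's rho between the TBP effect and the FOXJ3 effect was -0.41, Pearson's r was -0.41, and 19.8% had the same sign. The share with the same sign was 36.4% with TMM, 32.7% without rIgG batch 1 embryos 2 and 3, and 60.7% with both. With the FOXJ3 effect of batch 1 rho was -0.63, and with that of batch 2 it was 0.30. The FOXJ3 effects of the batches had a rho of -0.19 with each other, although they target the same protein. Over all 18295 features the values were -0.24, -0.39, 0.16 and -0.08 in the same order. Features are not independent replicates and share the libraries of each experiment, so these are descriptions.

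The sign of the relation depended on whether 2 CONTROL embryos were kept. They were picked after the data had been seen. Leaving out CONTROL embryos with low levels of genes that fall upon TBP LOF raises rho. These values therefore do not test what the relation rests on. Without rIgG batch 1 embryos 2 and 3, rho over both batches was 0.20 with spike-ins and 0.25 with TMM. Without embryo 3 alone it was -0.06, and without embryo 2 alone -0.28. Without rIgG batch 1 embryo 7, which deviated in the opposite direction, it was -0.50. No pair of embryos at that end was left out. TE families (237 well covered) had rho of the same signs as genes (4154), at -0.30 against -0.41 over both batches. In TE families it was -0.50 in batch 1 and 0.28 in batch 2. Other measures differed, since Pearson's r in batch 2 was 0.0057 for TE families and 0.30 for genes. Over both batches 36.3% of TE families and 18.8% of genes had the same sign. Among 2684 well-covered features that fell upon TBP LOF, the median TBP effect was -1.60 and the median FOXJ3 effect 0.23, made of 0.40 in batch 1 and 0.03 in batch 2. The 1683 features without a TBP call had a median FOXJ3 effect of 0.07.

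The same values can be laid out embryo by embryo, which restates the relation and adds no independent evidence. Each embryo's log2 deviations from the mean of its own CONTROL embryos were regressed over features on the TBP effect, so that 0 is CONTROL and 1 the average TBP LOF embryo. By construction mIgG embryos lay near 0, from -0.17 to 0.18, and TBP LOF embryos at 0.71 to 1.42. In batch 1, rIgG embryos 2 and 3 lay at 0.57 and 0.97, the other 5 at -0.61 to -0.10, and FOXJ3 LOF embryos at -0.45 to -0.10. The 0 of batch 1 is a mean that includes embryos 2 and 3 and so lies above the other 5. The FOXJ3 LOF embryos of batch 1 lay within the range of these 5. In batch 2, CONTROL embryos lay at -0.18 to 0.13 and FOXJ3 LOF embryos at -0.11 to 0.45. No FOXJ3 LOF embryo reached the lowest TBP LOF embryo, and 1 CONTROL embryo, rIgG embryo 3, did.

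**Figure D5:**
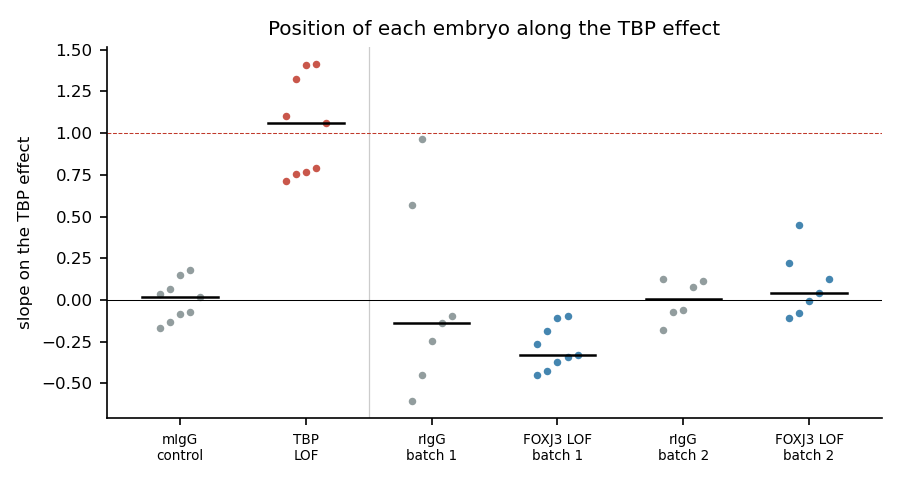
Position of each of the 47 embryos (points) along the TBP effect, as the slope of its log2 deviations from its CONTROL mean on the TBP effect, by group, with medians as black bars. FOXJ3 LOF embryos lie between -0.45 and 0.45, and rIgG batch 1 embryos 2 and 3 at 0.57 and 0.97. The CONTROL mean of batch 1 includes these embryos, which raises it above the other CONTROL embryos of the batch.

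Promoters were read because TBP binds the TATA element. The letters TATAAA were searched on the gene's own strand at 20 to 40 bases before the RefSeq start (GRCm38.p6), where they occur in 1.91% of 32851 promoters. The 158 tested protein-coding genes with the motif had a median difference of -0.38, and 18.4% of them were lower, beside a median of -0.94 and 33.7% lower among the 10271 without it. With TMM 4.43% of the genes with the motif were lower and 20.9% higher, against 13.3% and 12.3% without it. Genes with the motif were also less covered, with a median of 6.54 scaled reads against 19.6. Whether the level has a part in this was not tested.

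Shown are the 75 bases before the RefSeq start of 5 genes on which the results turn, with TATAAA in capitals. They come from 3 genes with a lower difference, the gene that was lower in both experiments and a gene with a higher difference. For Prkcd and Polr2h, RefSeq gives 2 starts, and 1 of them is shown.
Rpl22l1, chr3:28805433-28805507, plus strand: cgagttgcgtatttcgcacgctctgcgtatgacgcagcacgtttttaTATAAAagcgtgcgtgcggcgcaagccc
Prkcd, chr14:30626209-30626283, minus strand: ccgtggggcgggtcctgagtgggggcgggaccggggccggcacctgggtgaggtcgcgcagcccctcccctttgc
Polr2h, chr16:20717751-20717825, plus strand: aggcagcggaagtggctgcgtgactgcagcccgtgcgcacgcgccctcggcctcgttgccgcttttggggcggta
Letm1, chr5:33782718-33782792, minus strand: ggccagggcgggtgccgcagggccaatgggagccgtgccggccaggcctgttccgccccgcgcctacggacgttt
Gatd1, chr7:141414126-141414200, minus strand: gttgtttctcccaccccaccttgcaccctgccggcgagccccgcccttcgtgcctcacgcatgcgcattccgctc
Of these, Rpl22l1 holds TATAAA, at 28 to 23 bases before the start, and the letters are not in the windows of the other 4, which include Prkcd and Polr2h with differences of -4.05 and -3.38.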

How the data were processed

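Single late 2-cell embryos were sequenced with Smart-seq+5'. The authors ran FASTQC and Trimmomatic, sorted the 5' reads, mapped them with STAR 2.7.11a to GRCm38 with the mCherry-Trim21 construct added and endogenous Trim21 masked, used only the second mate of a pair, and ran TEcount with gencode M20. Deposited were raw counts of genes and spike-ins, and expected counts of TE families, all whole numbers. The sources used here do not say how reads of several copies were shared out or whether strand was used, and overlapping genes and near-identical copies are therefore uncertain. Reads amplified by PCR carried no molecular identifiers, so counting error understates the noise.

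Gene and TE rows were kept in 47 embryos with at least 500000 counted reads. Subfamily rows were added to their families, and symbols taken from gencode M21. The labels give 9 TBP LOF and 10 mIgG embryos, 1 mIgG and 1 FOXJ3 LOF embryo fell under the minimum, and the Methods give 10 TBP LOF and 9 CONTROL embryos. No 2 embryos agreed within sampling noise (lowest chi-square per degree of freedom 9.12). Tables of single TE insertions cover the TBP experiment alone and were not used here.

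Features with at least 1 read in 25% of the embryos of each experiment (18295) were fitted together in edgeR 4.0.16 (R 4.3.3) with the quasi-likelihood test, two-sided, median-of-ratios size factors of 41 ERCC transcripts in both experiments, and library batch as a covariate. Spike-ins were used also for FOXJ3, unlike in the Methods. P-values were adjusted after Benjamini-Hochberg over all features, with a threshold of 0.05. Shifts per embryo were tested by permutation, within experiment and batch, of the residuals of a model without the difference of effects. It used 100000 resamples, and fewer in the fits with 1 embryo left out. Scripts were checked on simulated data.

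Alternatives were TMM and DESeq2 1.42.0 size factors, total ERCC reads, DESeq2, limma 3.58.1 voom, separate models, other filters, covariates, single batches, all 49 embryos, each embryo left out, and a block by embryo number. TMM within batches, fits without rIgG batch 1 embryos 2 and 3, and the same pairs without a block were chosen after seeing the data. Members and lists were chosen with earlier results of these data known. Named features were the targets, genes and families the study names, in each direction the 10 genes and the 5 TE families of smallest p in the difference that passed with both scalings at a mean of at least 10 scaled reads, the 5 with opposite effects, the 5 with shared effects in each direction, and up to 4 members of each list with the smallest p. Promoters were from RefSeq (GRCm38.p6), with a sequence for 11373 tested genes. A named gene withheld from the text is not reported here.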

Additional observations from a re-analysis of the deposited data

Results flagged for a closer look

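In groups of 6 to 9 embryos, 4 of 42 combinations of group and measure held an embryo far from the others by Dixon's criterion, which chance passes in about 1 in 20. FOXJ3 LOF batch 1 embryo 2 had a log2 ratio of gene and TE reads to ERCC reads of 3.55 and 7.88% ERCC reads, measures that restate each other. FOXJ3 LOF batch 2 embryo 9 had 31.0% TE reads. The rIgG batch 2 embryo 2 had 6.39% mitochondrial reads.

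The effects differed between the experiments, by the test of the difference itself, for 5524 features, for the log2 ratio of gene and TE reads to ERCC reads (-0.90) and for the share of ERCC reads (2.19 percentage points). Among named genes and families that passed with both scalings, downward log2 differences were -4.05 for Prkcd, -4.16 for Pmpcb, -3.996 for Pibf1, -4.33 for Nkapd1, -3.38 for Polr2h, -4.89 for Sco2, -3.87 for Atg3, -4.34 for Mafk, -4.91 for Rpl22l1 and -4.16 for Usp29. The TE families were ORR1A1 at -2.23, ORR1A1-int at -2.38, ORR1A4-int at -2.26, RLTR9E at -2.86 and RLTRETN_Mm at -2.89. Upward, the log2 differences were 2.48 for Gatd1, 5.30 for Gm13341, 1.94 for Gm29125, 2.23 for Mrnip, 2.83 for Zfp353-ps, 2.08 for Gm839, 2.27 for Gm5662, 3.16 for Gm35974, 1.78 for Tcstv3 and 1.94 for Cirbp.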

How the results depend on the processing

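The count of the difference stayed within 1.5 times its 5524 with total ERCC reads (5467), DESeq2 (5951), voom (6081), all 49 embryos (5567) and TMM (4209), and was 3479 with FOXJ3 batch 2 only, 1306 with batch 2 and TMM, and 3104 with TMM without rIgG batch 1 embryos 2 and 3. With TMM 50.2% of the calls were lower, against 97.5% by spike-ins. Leaving out each embryo gave 5036 to 6133 for the difference, 5391 to 6352 for the TBP effect, and an overall shift of -1.0 to -0.82 (largest permutation p 0.0025).

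The FOXJ3 effect, 3 calls, gave 1 with DESeq2, 0 with voom, 1 with filterByExpr, 9 with no filter, 0 with the construct level as covariate, 0 with batch 1 only, 1 with batch 2 only (SYNREP_MM), 0 with TMM in a refit of either batch alone, and 1 without rIgG batch 1 embryos 2 and 3, also with TMM. With an embryo left out it gave 1 to 3. The agreement across features (rho -0.41) turned to 0.30 with batch 2 only (0.31 with TMM) and to 0.20 without these rIgG embryos (0.25 with TMM), and ran from -0.50 to -0.06 with single embryos left out, the latter without rIgG batch 1 embryo 3. Lists with over 50% of members lower numbered 13 of 37, but 4 with TMM, 4 with DESeq2 size factors, 3 with TMM in batch 1, 1 with TMM in batch 2, 4 with TMM without these embryos, and 12 to 14 with an embryo left out. The cause was not tested.

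Values that reversed were Letm1 at 1.13 with TMM and 1.19 with DESeq2 size factors, MERVL-int at 0.75 and 0.80, MTEa at 0.058 and 0.13 (0.092 with TMM in batch 1), MTEb at 0.051 and 0.14 (0.090 with TMM in batch 2), Amhr2 at 0.26 with TMM in batch 2 and 0.0021 with TMM without these rIgG embryos, and mCherry-Trim21 at -0.90 with its own level as covariate. Of 141 named features past the threshold, 33 lost the call with TMM and 12 with an embryo left out, Phlda2 among them in each case. Part of the named features were chosen because they passed with TMM, and others for the smallest p of their list. These counts therefore do not stand for all features. Over all features, 2251 of the 5524 calls (40.7%) were kept with TMM in the same direction. A window of 50 bases for TATAAA gave 19.6% lower in place of 18.4%.

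Embryo numbers did not pair the embryos, since of 19 pairs 5 had a correlation of deviations over 0.1 (range -0.29 to 0.30) and 2 correlated best with their own number. With the replicate block the difference gave 4011 calls and the FOXJ3 effect 0, the same pairs without the block 3881 and 1, and the agreement under the block was -0.47. Depth limits low features, and 0 or few reads in an embryo do not show that a transcript is absent.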
